A study of Mus musculus with 9 samples.

Results

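The libraries titled Carm1-/- were compared with the libraries titled wild type (WT) in mouse embryos at about the late blastocyst stage. Members were chosen by sample title alone, which gave 3 libraries titled Carm1-/- and 3 titled WT, 6 of the 9 libraries of the series. Both groups carry the same labels for strain (C57BL/6), source (E4.5 embryo), culture (in vitro) and age (4.5 days after microinjection), and differ in the genotype label, wild type or Carm1-/-. What was injected into each group, and whether the lesion is mosaic, is not given in the sources used here. RNA was given as FPKM, fragments scaled by transcript length and library size. Of 16070 listed rows, 10938 reached 1 FPKM in at least 3 of the 6 libraries and were tested. The depth of each library is unknown. The preparation is described as cDNA of a single cell from E4.5 embryos, and separate embryos are not stated, so a p-value measures only the spread between these libraries.

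CARM1 (PRMT4) is an arginine methyltransferase that acts as a transcriptional coactivator and methylates arginine residues of histone H3, among them arginine 17. In the early mouse embryo it is known for biasing cells toward the inner cell mass. The blastocyst separates an outer trophectoderm, which forms the placenta, from an inner cell mass that holds the epiblast and the primitive endoderm. Yap1, the effector of the Hippo pathway, binds Tead4 in outer cells and turns on the trophectoderm regulators Cdx2 and Gata3.

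The gene named in the titles, Carm1, was read first. Its locus is chromosome 9, 21546894 to 21592623, on the plus strand of GRCm38. Carm1 measured 8.86, 7.08 and 6.65 FPKM in replicates 1 to 3 titled WT and 6.44, 12.7 and 9.52 FPKM in replicates 1 to 3 titled Carm1-/-. The groups overlapped, and 2 of the 3 libraries titled Carm1-/- lay above every WT library. Means were 7.53 ± 1.17 FPKM for WT and 9.54 ± 3.12 FPKM in the libraries titled Carm1-/- (SD, n = 3 each), and limma gave a log2 difference of 0.27 (SE 0.33, adjusted p = 0.794). The sample descriptions and column headings also give these 3 libraries the name Hist, while those titled H3R17H are named Carm. In the libraries titled H3R17H, Carm1 was at 1.88, 0.02 and 1.22 FPKM, all below the lowest WT library. A lesion that destroys the protein can leave its RNA, and FPKM over a whole gene does not show which part is read. Yipf2, on the opposite strand, shares 21.1% of the exon bases of Carm1, and whether the counting used strand is not given. The direction of each difference below therefore refers to the title of the library, not to a known genotype.

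The 3 libraries titled Carm1-/- were not alike. Pearson's r of log2(FPKM + 1) across the tested genes, which are not independent replicates, was 0.955 to 0.967 among WT libraries. Replicate 1 titled Carm1-/- had an r of 0.929 to 0.946 with the WT libraries and of 0.856 and 0.898 with its own replicates 2 and 3. Ddx3y, Eif2s3y, Kdm5d and Uty, which are Y-linked, summed to 30.7 to 35.7 FPKM in WT, 28.1 FPKM in replicate 1 titled Carm1-/- and at most 0.004 FPKM in replicates 2 and 3. Xist, which silences an X chromosome in females, stood at most at 0.43 FPKM in WT, at 0.26 FPKM in replicate 1 and at 32.5 and 18.9 FPKM in replicates 2 and 3. All WT libraries and replicate 1 thus had the transcripts of a male, and replicates 2 and 3 those of a female. In any contrast of replicates 2 and 3 with WT, the title and the sex cannot be told apart. Results are given over all 3 libraries and again without replicate 1.

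Each library held RNA of at least 1 gene used as a marker of each of the 3 blastocyst lineages. The trophectoderm keratins Krt8 and Krt18 were at 846 FPKM or more in every library, and Pou5f1, the pluripotency factor, was at 41.9 FPKM or more. Gata6, a primitive endoderm regulator, was at 20.8 FPKM or more. Other markers were near 0 in some libraries titled Carm1-/-. The primitive endoderm gene Sox17 was at 0.01 and 0.26 FPKM in replicates 2 and 3. The epiblast gene Sox2 was at 0.12 and 0.14 FPKM in replicates 1 and 2. Cells of each lineage in each library are therefore not shown. Of 14 cumulus and granulosa cell symbols, which would mark maternal somatic cells, 1 was in the table and 0 passed the filter.

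Over all 3 libraries titled Carm1-/-, 0 of 10938 genes were higher and 0 were lower than in WT at an adjusted p under 0.05 (limma, 0% in each direction, lowest adjusted p = 0.26). At an unadjusted p under 0.05, limma gave 519 higher and 614 lower genes, where 547 in all would be expected if no gene differed. All 3 libraries lay above all 3 WT libraries for 755 genes (6.9%) and below them for 1087 (9.94%). A gene under 1 FPKM in every library of 1 group passed the filter only with all 3 of the other at 1 FPKM or more. Such genes are in these counts because of the filter. Without replicate 1 titled Carm1-/-, limma called 195 genes higher (1.78%) and 192 lower (1.76%), and leaving out any other of the 6 libraries gave 0 in each direction. The count of called genes thus rested on whether replicate 1 was in the fit.

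For the genes called without it, replicate 1 had median differences near 0. Among the 195 genes that rose without it, the median log2 difference from WT was 2.14 in replicate 2, 1.94 in replicate 3 and 0.19 in replicate 1. Among the 192 that fell, the medians were -2.05, -1.89 and -0.13. Replicate 1 lay above all 3 WT libraries for 88 of the 195 (45.1%), against 29.4% of all tested genes, and below all 3 for 52. It lay below all 3 WT libraries for 78 of the 192 (40.6%), against 32.5% of all tested genes, and above all 3 for 48. The differences of all 3 libraries were taken from the same WT libraries, so they are not independent of each other. The 195 and 192 genes were also chosen by the values of replicates 2 and 3, which in part sets their medians far from 0 there and nearer to 0 in the library left out. Genes under 1 FPKM in all WT libraries were tested only if replicate 1 reached 1 FPKM. The filter thus fixed their side in the shares above WT. No test was made of these shares.

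**Figure D1:**
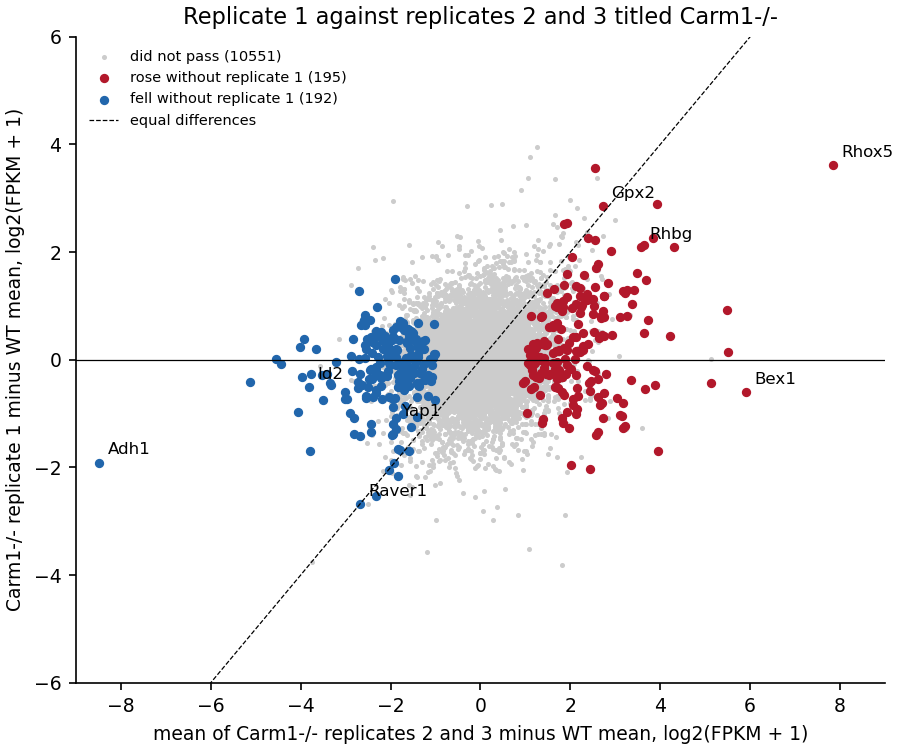
Each point is 1 of 10938 tested genes: the log2(FPKM + 1) difference from the WT mean of replicates 2 and 3 titled Carm1-/- (their mean, horizontal axis) and of replicate 1 (vertical axis). The 195 genes that rose (red) and the 192 that fell (blue) without replicate 1 have medians of 0.19 and -0.13 on the vertical axis. Gpx2, Rhox5, Raver1 and Yap1 lie on the same side in replicate 1, which for Rhox5 the filter required.

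Of the 755 genes above and 1087 below WT in all 3 libraries titled Carm1-/-, those with the smallest p are described, 5 in each direction with a mean of at least 5 FPKM. Each of the 10 had a limma adjusted p of 0.26 over all 3 libraries, and all 10 passed without replicate 1. Gpx2, a glutathione peroxidase that detoxifies hydroperoxides (chromosome 12, 76792333 to 76795554, minus strand), stood at 20.8, 31.5 and 12.3 FPKM in the WT libraries and at 151, 176 and 108 FPKM in replicates 1 to 3 titled Carm1-/-. The lowest of these 3 libraries was above the highest WT library, and replicate 1 was as high as the others. The mean was 6.73 times that of WT, with a log2 difference of 2.76 (SE 0.36) over all 3 libraries and 2.72 without replicate 1 (adjusted p = 0.0245, limma).

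Rhbg, an ammonium transporter of the Rhesus family (chromosome 3, 88242874 to 88254709, minus strand), stood at 0.65, 0.68 and 0.88 FPKM in the WT libraries and at 6.37, 17.4 and 22.2 FPKM in the libraries titled Carm1-/-. Replicate 1 was the lowest of the 3 and still far above WT. Another gene model on the same strand, Gm38392, covers 61.4% of the exon bases of Rhbg in GENCODE M21 and is not among the listed rows, so the value of Rhbg may hold reads of either. The mean was 20.7 times that of WT, a log2 difference of 3.08 (SE 0.47), and 3.57 without replicate 1 (adjusted p = 0.00912, limma). Phlda2, an imprinted gene that restrains placental growth (chromosome 7, 143501545 to 143503150, minus strand), stood at 3.60, 2.84 and 3.37 FPKM in the WT libraries and at 23.6, 15 and 13.7 FPKM in the libraries titled Carm1-/-. Here replicate 1 was the highest, and the log2 difference was 2.07 (SE 0.32), or 1.85 without it (adjusted p = 0.0311, limma). Slc22a7, an organic anion transporter, was at 0.93, 0.90 and 0 FPKM in the WT libraries. It was at 17.3, 6.85 and 9.35 FPKM in the libraries titled Carm1-/-, again highest in replicate 1 (adjusted p = 0.0319 without it, limma). Rhbg and Slc22a7 were under 1 FPKM in all WT libraries, so they were tested only because all 3 libraries titled Carm1-/- reached 1 FPKM. Their lack of overlap with WT was thus set by the filter.

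On the lower side, Raver1, a ribonucleoprotein that binds vinculin (chromosome 9, 21074158 to 21092008, minus strand), ends 455 kb before the start of Carm1. It stood at 8.12, 5.16 and 3.68 FPKM in the WT libraries, and 0 was listed in all 3 libraries titled Carm1-/-. The log2 difference was -2.68 (SE 0.36), and the same without replicate 1 (adjusted p = 0.0245, limma). Its value was not 0 in the libraries titled H3R17H, where it stood at 5.59, 4.52 and 6.39 FPKM. An exact 0 without counts can be a failed estimate, so no fold is given. In GENCODE M21 a longer gene model on the same strand, Gm38431, covers 99.7% of the exon bases of Raver1 and runs on into the next gene, Fdx1l, so reads may have been split between the models. Gm38431 moved the other way, at 0.01, 0.06 and 0.19 FPKM in WT and 2.19, 1.14 and 1.23 FPKM in those titled Carm1-/-. The low Raver1 value is therefore uncertain. Rdx, the membrane-to-actin linker radixin (chromosome 9, 52047173 to 52088735, plus strand), stood at 21.1, 23.5 and 29.0 FPKM in the WT libraries and at 6.87, 6.20 and 8.87 FPKM in the libraries titled Carm1-/-, with no overlap. Its log2 difference was -1.62 (SE 0.28), and -1.59 without replicate 1 (adjusted p = 0.0372, limma).

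Ninj1, which ruptures the plasma membrane in lytic cell death, was at 39.9, 42.6 and 49.1 FPKM in the WT libraries and at 17.9, 12.4 and 16.5 FPKM in the libraries titled Carm1-/-. Kyat3, a kynurenine aminotransferase, was at 9.29, 7.31 and 5.61 FPKM in the WT libraries and at 0.86, 1.64 and 1.05 FPKM. Rsc1a1, a regulator of solute carriers, was at 6.39, 13 and 5.32 FPKM in the WT libraries and at 0.50, 0.50 and 0.99 FPKM. In these 3 genes all 3 libraries titled Carm1-/- lay below all WT libraries. All exon bases of Rsc1a1 (100%) lie within exons of Ddi2 on the same strand, and Ddi2 lay the other way in all 3 libraries, at 19.3, 38.0 and 21.5 FPKM against 10.2, 10.2 and 19.2, so the value of Rsc1a1 is uncertain in the same way. Without replicate 1 their adjusted p values were 0.0292, 0.0431 and 0.0397 (limma).

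**Figure D2:**
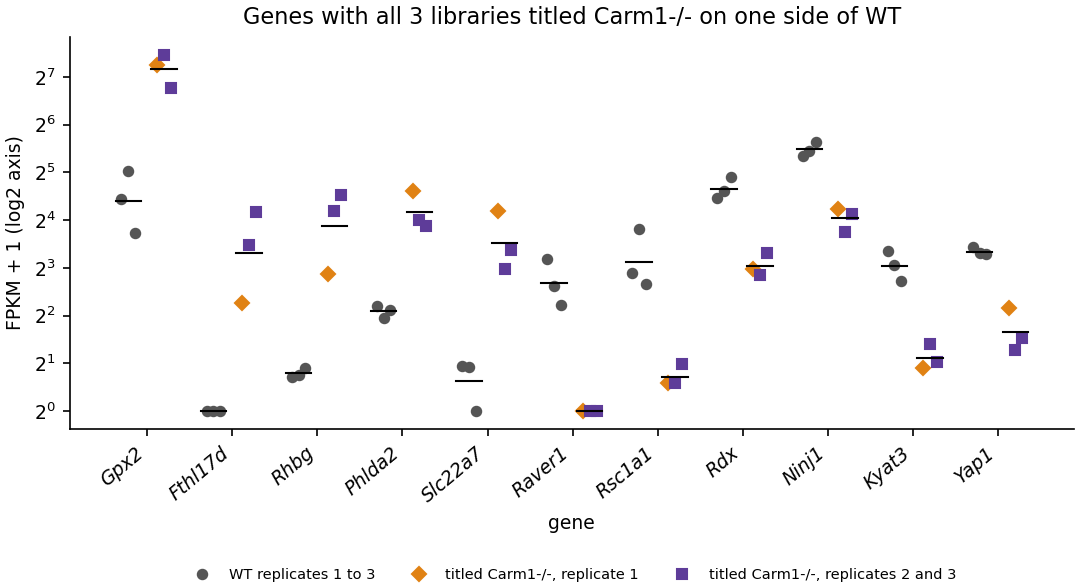
FPKM + 1 on a log2 axis for each of the 6 libraries (points) and the mean on that scale of each group (bars) for 11 genes. In every gene shown, replicate 1 titled Carm1-/- (diamonds) lies on the same side of all 3 WT libraries as replicates 2 and 3 (squares). The filter required this for Fthl17d, Rhbg and Slc22a7, which are under 1 FPKM in all WT libraries. Raver1 is at 0 FPKM in all 3 libraries titled Carm1-/-.

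The series names Yap signalling as its subject. Yap1 (chromosome 9, 7931999 to 8004596, minus strand) stood at 9.80, 8.96 and 8.73 FPKM in the WT libraries and at 3.45, 1.42 and 1.88 FPKM in the libraries titled Carm1-/-. All 3 lay below WT, with replicate 1 the nearest. The mean was 9.16 ± 0.57 against 2.25 ± 1.06 FPKM (SD, n = 3 each), and the log2 difference of -1.69 (SE 0.35) missed the threshold (adjusted p = 0.271, limma). Without replicate 1 Yap1 fell by 1.94 on the log2 scale (adjusted p = 0.0296, limma). Wwtr1, which encodes the related effector TAZ, was at 19.7, 23.3 and 13.9 FPKM in the WT libraries and at 23.3, 17.4 and 27.6 FPKM in the libraries titled Carm1-/-, with the groups interleaved (adjusted p = 0.782, limma). Tead4, the DNA-binding partner, was at 26.9, 34.2 and 20 FPKM in the WT libraries and at 31.8, 38.4 and 7.48 FPKM, with replicate 2 above and replicate 3 below the WT range (adjusted p = 0.869, limma).

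Of the 8 tested Yap, TAZ and Tead effectors, 6 had lower values over all 3 libraries, with a median log2 difference of -0.28, against -0.06 over all tested genes. Their median was 0.40 in replicate 1, -1.22 in replicate 2 and -0.75 in replicate 3. Without replicate 1, Yap1 and the Tead cofactor Vgll3 fell, 2 of the 8 (25%, against 1.76% of all tested genes), and 0 rose. Vgll3 was at 2.78, 2.98 and 5.39 FPKM in the WT libraries and at 1.78, 0.43 and 0 FPKM in replicates 1 to 3. Among 15 Hippo kinases and upstream regulators 0 passed with or without replicate 1. Stk3 and Stk4, the kinases that start the cascade, had all 3 libraries below WT, at 3.55, 2.13 and 3.91 FPKM against 4.53 to 7.32 for Stk3 and at 7.72, 4.61 and 6.37 FPKM against 7.93 to 8.30 for Stk4. The median of this list changed sign with the scaling, so no direction is given for it.

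The Yap target genes showed no common direction that passed. Of 24 symbols 18 were in the table and 10 passed the filter, of which 7 had lower and 3 higher values, with a median of -0.37 over all 3 libraries. None of the 10 passed with or without replicate 1. Ctgf, a matricellular protein and classic target, was at 6.11, 4.64 and 4.10 FPKM in the WT libraries and at 3.74, 2.85 and 0 FPKM in the libraries titled Carm1-/-, all below WT (log2 difference -1.16, SE 0.59, adjusted p = 0.537, limma). Cyr61, its close relative, was at 10.3, 44.3 and 11.4 FPKM in the WT libraries and at 31.5, 72.8 and 18.6 FPKM, which overlapped with WT and had a higher mean. Gadd45b, the member with the smallest p, also had a higher mean and overlapped with WT. It was at 0.91, 5.39 and 0.05 FPKM in the WT libraries and at 5.32, 6.21 and 9.02 FPKM (log2 difference 1.72, SE 0.63, adjusted p = 0.421, limma). Ajuba, a target that is itself a Hippo regulator, was at 4.89, 4.63 and 4.18 FPKM in the WT libraries and at 3.87, 0.25 and 2.32 FPKM. Birc5, survivin, lay narrowly below WT in all 3 libraries, at 110, 102 and 124 FPKM against 126 to 130. The letters that Tead proteins bind, GGAATG on either strand, occurred in the 300-base RefSeq promoter windows of 6 of 12 Yap targets with a window. They occurred in 2 of 9 genes of the trophectoderm transcription factor list, against 12.6% of all promoters. The matches were Ptpn14, Amotl2, Ajuba, Lats2, Crim1 and Ankrd1, and Elf3 and Elf5. Of these, Ptpn14, Crim1, Ankrd1 and Elf5 did not pass the expression filter. Each is a match of letters in a short window, not a bound site.

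The trophectoderm programme separated replicate 1 from replicates 2 and 3. The list of trophectoderm transcription factors also holds the receptor gene Fgfr2. Of its 11 tested genes 10 had lower values over all 3 libraries, with a median log2 difference of -0.89, and 0 passed. Their median was 0.02 in replicate 1, -1.72 in replicate 2 and -1.49 in replicate 3. Their summed level was 1136 to 1353 FPKM in WT, 1180 FPKM in replicate 1 and 310 and 442 FPKM in replicates 2 and 3. Most of each sum was Id2, Gata3 and Elf3. Without replicate 1, Cdx2, Gata3 and Id2 fell, 3 of the 11 (27.3%, against 1.76% of all tested genes), and 0 rose.

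Id2, an inhibitor of differentiation that marks early outer cells (chromosome 12, 25093799 to 25097140, minus strand), stood at 308, 452 and 536 FPKM in the WT libraries and at 296, 32.4 and 25.7 FPKM in replicates 1 to 3 titled Carm1-/-. Replicate 1 was next to the lowest WT library, and the WT mean was 14.9 times that of replicates 2 and 3. Without replicate 1 the log2 difference was -3.82 (SE 0.27, adjusted p = 0.00348, limma), and with it -2.72 (SE 0.82, adjusted p = 0.343). Gata3 (chromosome 2, 9857078 to 9890034, minus strand) was at 277, 318 and 369 FPKM in the WT libraries and at 276, 73.9 and 77.7 FPKM, with replicate 1 again next to the lowest WT library (adjusted p = 0.00965 without replicate 1, limma). Cdx2 (chromosome 5, 147300805 to 147307270, minus strand) was at 10.2, 7.13 and 5.0 FPKM in the WT libraries and at 12.7, 0.60 and 0.14 FPKM. Replicate 1 had the highest Cdx2 of the 6 libraries, and without it Cdx2 fell by 2.60 on the log2 scale (adjusted p = 0.0273, limma). Eomes, a regulator of trophoblast stem cells, overlapped with WT, at 6.03, 4.34 and 3.97 FPKM against 5.79 to 11.9. Hand1, a regulator of trophoblast giant cells, was listed at 0 in WT and stood at 1.0, 11.4 and 5.63 FPKM, but did not pass the filter.

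The structural genes of the trophectoderm and blastocoel also had lower medians in replicates 2 and 3 than in replicate 1. Of 23 tested, 17 had lower values over all 3 libraries and 0 passed. Their median was 0.38 in replicate 1, -1.28 in replicate 2 and -0.60 in replicate 3. Their summed level was 6625 to 9408 FPKM in WT, 10454 FPKM in replicate 1 and 2752 and 3579 FPKM in replicates 2 and 3. Most of each sum was Krt8 and Krt18, so the sums say little of the other members. Without replicate 1, 6 of 23 (26.1%, against 1.76% of all tested genes) fell, among them Krt8, Krt18, Epcam, Ocln and Dppa1, and 0 rose. Krt8, which with Krt18 forms the keratin filaments of the outer layer, was at 2229, 2551 and 2756 FPKM in the WT libraries and at 4025, 846 and 1071 FPKM, so replicate 1 was above and the others below WT. Ocln, a tight junction protein, was the member with all 3 libraries far below WT, at 2.41, 1.91 and 2.39 FPKM against 9.47, 12.7 and 8.02. The tight junction genes did not all move together. The claudin gene Cldn6 was at 188, 176 and 149 FPKM, above 66.8 to 120 in WT (did not pass). In 21 tested junction and polarity genes, 19 had lower values with a median of -0.32, and 0 passed with or without replicate 1.

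If a library holds RNA of more than 1 cell, fewer cells of a lineage and less RNA per cell cannot be told apart. Epiblast and pluripotency genes lay on both sides of WT. Of 16 tested, 7 had higher and 9 lower values, with a median of -0.14, and 0 passed with or without replicate 1. Their summed level was 4929 to 6732 FPKM in WT and 5360, 5857 and 6941 FPKM in the libraries titled Carm1-/-, but most of each sum was Dppa5a, a pluripotency-associated gene, which measured 4144 to 6119 FPKM in WT against 4612, 5064 and 6188 FPKM. Nanog was at 56.9, 46.2 and 39.9 FPKM in the WT libraries and at 36.1, 43.1 and 47.5 FPKM, and Pou5f1 at 91.2, 61.3 and 41.9 and at 63.6, 118 and 64.7 FPKM, each with overlapping groups. Zfp42 (Rex1), a marker of naive pluripotency, lay above WT in all 3 libraries, at 136, 74.3 and 120 FPKM against 45.5 to 50.2 (log2 difference 1.15, SE 0.27, adjusted p = 0.271, limma). Utf1, a chromatin-bound pluripotency factor, lay below, at 23.4, 25.6 and 41.2 FPKM against 46.9 to 85.8 (adjusted p = 0.327, limma). Sox2 varied within the group, at 0.12, 0.14 and 3.14 FPKM against 3.14, 2.23 and 1.18 in WT.

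Of 15 primitive endoderm genes 11 had lower values, with medians of -0.04, -1.21 and -0.61 in replicates 1 to 3. None passed over all 3 libraries, and without replicate 1 Dab2 and Lamc1 fell (13.3%, against 1.76% of all tested genes). Dab2, an endocytic adaptor, was at 124, 157 and 140 FPKM in the WT libraries and at 129, 34.2 and 49.7 FPKM (adjusted p = 0.0229 without replicate 1, limma). Lamc1, a laminin chain of the basement membrane, was at 7.29, 10.8 and 17.4 FPKM in the WT libraries and at 8.54, 0.63 and 2.20 FPKM (adjusted p = 0.0423). The lineage regulator Gata6 did not follow them, at 28.6, 29.0 and 21.7 FPKM in WT and 20.8, 40.1 and 33.2 FPKM. Sox17 was at 0.58, 13.3 and 4.45 FPKM in the WT libraries and at 3.85, 0.01 and 0.26 FPKM, and the WT spread covered these values except the lowest pair. In the Fgf pathway, which drives primitive endoderm, 1 of 10 tested genes, the feedback inhibitor Spry1, fell without replicate 1, from 2.0 to 2.44 FPKM in WT to 0 and 0.04 FPKM.

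**Figure D3:**
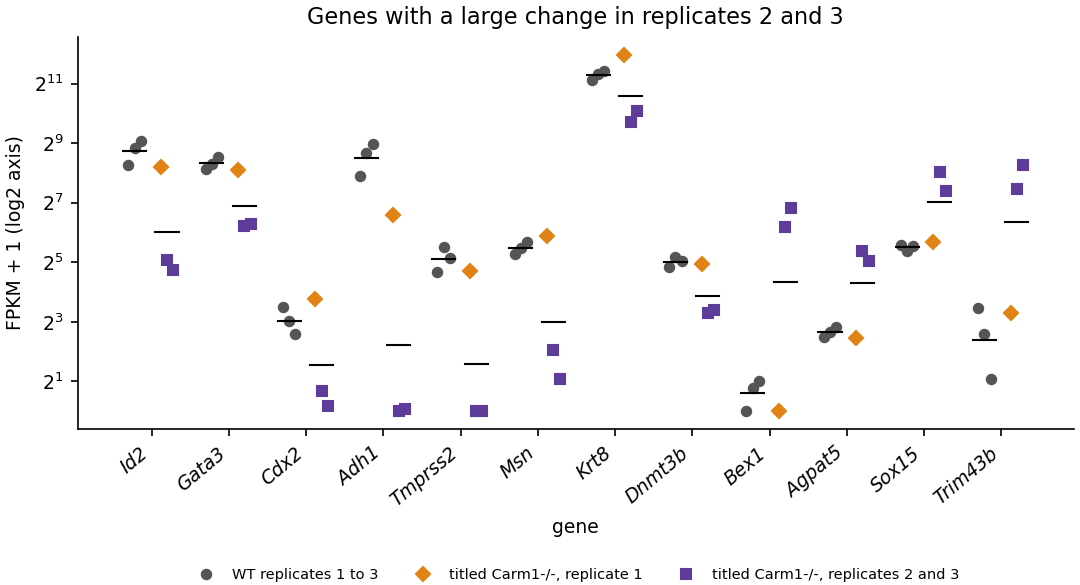
FPKM + 1 on a log2 axis for each of the 6 libraries (points) and the mean on that scale of each group (bars) for 12 genes that passed without replicate 1. Replicate 1 titled Carm1-/- (diamonds) lies near the WT libraries (circles) except in Adh1, at 96.3 FPKM against 240 to 503, while replicates 2 and 3 (squares) lie far from both.

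Outside the lists, several of the genes with the smallest p without replicate 1 lay near 0 in replicates 2 and 3. Adh1, an alcohol dehydrogenase that oxidises retinol (chromosome 3, 138260991 to 138290698, plus strand), stood at 240, 403 and 503 FPKM in WT, at 96.3 FPKM in replicate 1 and at 0 and 0.06 FPKM in replicates 2 and 3. All 3 lay below WT, but replicate 1 kept a high level, and the gene passed without it (adjusted p = 1.68e-04, limma). Tmprss2, a membrane serine protease, was at 24.8, 45.2 and 34.6 FPKM in WT, 25.2 FPKM in replicate 1 and 0 and 0.01 FPKM in replicates 2 and 3. Slc9a3r1 (Nherf1), a scaffold beneath the apical membrane, was at 75.9 to 81.4 FPKM in WT, 83.1 FPKM in replicate 1 and 8.05 and 12 FPKM in replicates 2 and 3. Msn, the actin linker moesin and a relative of Rdx, was at 37.9 to 50.8 FPKM in WT, 58.0 FPKM in replicate 1 and 3.12 and 1.10 FPKM in replicates 2 and 3. Within the same family, Ezr (ezrin) overlapped with WT, at 46.9, 23.5 and 38.1 FPKM against 36.4 to 62.8, so Rdx was low in all 3 libraries, Msn in 2 and Ezr beyond the WT range in 1.

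Among the genes that rose without replicate 1 was 1 of the 3 tested genes of the 2-cell stage list (33.3%, against 1.78% of all tested genes). Trim43b was at 10.1, 5.01 and 1.13 FPKM in WT, 8.93 FPKM in replicate 1 and 177 and 306 FPKM in replicates 2 and 3 (adjusted p = 0.0186, limma). Its near relative Trim43a was high in every library, at 389 to 450 FPKM in the WT libraries and at 473, 617 and 719 FPKM, and its reads may be split with those of Trim43b. Other 2-cell stage genes that did not pass the filter were seen mainly in replicate 2: Tdpoz4 was at 27.8 FPKM there and listed at 0 in the other 5 libraries. Of 3 tested oocyte genes 1 rose without replicate 1 (33.3%, against 1.78% of all tested genes). It was Zp3, a zona pellucida protein, at most at 0.27 FPKM in WT and at 1.80, 20 and 4.73 FPKM (adjusted p = 0.0324 without replicate 1, limma). Zp3 was under 1 FPKM in all WT libraries, so it was tested only because all 3 libraries titled Carm1-/- reached 1 FPKM. The filter thus fixed its direction, and the share of the oocyte list rests on this gene. Ooep overlapped with WT, at 42.9, 9.25 and 15.7 FPKM against 25.7 to 40.5. Sox15, a transcription factor of the Sox family, was at 40.3 to 47.3 FPKM in WT, 49.8 FPKM in replicate 1 and 259 and 166 FPKM in replicates 2 and 3 (adjusted p = 0.0186).

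X-linked genes made up a larger share of the genes that rose than of the tested genes. Of the 195, 20 were X-linked (10.3%), against 5 of the 192 that fell (2.6%) and 349 of all 10938 tested genes (3.19%). Among the 20 were Fthl17b to Fthl17f and Fthl17-ps1, neighbouring copies whose values are not independent, so the share counts 1 cluster several times. Fthl17b, Fthl17c, Fthl17d, Fthl17-ps1 and Rhox5, all among the 20, were under 1 FPKM in all WT libraries. They were tested only because all 3 libraries titled Carm1-/- reached 1 FPKM, so the filter fixed their direction. The share of X-linked genes was not tested. The median log2 difference of X-linked genes was -0.06 in replicate 1, 0.20 in replicate 2 and 0.28 in replicate 3, and of autosomal genes -0.02, -0.11 and -0.04. Their summed level was 12199 to 13302 FPKM in WT, 11539 FPKM in replicate 1 and 20676 and 18224 FPKM in replicates 2 and 3. The same 2 libraries held Xist and lacked Y-linked transcripts.

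Within the X, the Rhox homeobox cluster and the Fthl17 cluster of ferritin heavy chain-like genes are described. Rhox5 and the Fthl17 genes are known to be expressed mainly from the paternal X, and hence in females, in the preimplantation mouse embryo, and the Rhox cluster is known to be silenced by DNA methylation. Rhox5 (chromosome X, 37804842 to 37808876, plus strand) stood at 0.66, 0.51 and 0.21 FPKM in the WT libraries and at 16.7, 264 and 412 FPKM in replicates 1 to 3 titled Carm1-/-. Replicate 1, which had Y-linked transcripts and no more Xist than WT, also lay above all WT libraries. All WT libraries were under 1 FPKM, so Rhox5 was tested only because all 3 libraries titled Carm1-/- reached 1 FPKM. The filter thus fixed the side on which replicate 1 lay, though not its level. The log2 difference was 6.43 (SE 1.03, adjusted p = 0.26, limma), and 7.84 without replicate 1 (SE 0.32, adjusted p = 1.68e-04). Rhox1 also lay above WT in all 3 libraries, at 8.20, 8.0 and 15.2 FPKM against 0, 2.49 and 0, and did not pass (adjusted p = 0.271, or 0.0505 without replicate 1). Rhox9 was listed at 0 in WT and in replicate 1 and stood at 15.9 and 8.08 FPKM in replicates 2 and 3, and Rhox2a at 2.30 and 55.0 FPKM. Of 6 Rhox genes in the table, 2 passed the filter. Bex1, another X-linked gene, was at most at 1.0 FPKM in WT, at 0 in replicate 1 and at 72.5 and 112 FPKM in replicates 2 and 3 (adjusted p = 0.00348 without replicate 1, limma).

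The Fthl17 genes are shown by sequence because their copies are near-identical and lie side by side, so that their values are not independent and reads may be split between them. Fthl17b to Fthl17f are 5 genes within 101 kb, and their GENCODE M21 transcripts were 94.5% to 98.4% identical over the 10 pairs. Fthl17a lies 76288 kb from the first of them, and its transcript was 65.5% identical to that of Fthl17d. The RefSeq windows below run from 250 bases before to 50 after each start (GRCm38.p6), with CpG dinucleotides, the sites of DNA methylation, in capitals. They are the window of Fthl17d, listed at 0 in all WT libraries and above 0 in all 3 titled Carm1-/- (chrX:8986623-8986922, minus strand), of Fthl17e, set apart in replicates 2 and 3 (chrX:9033236-9033535, plus strand), and of Fthl17a (chrX:85249427-85249726, plus strand).
Fthl17d: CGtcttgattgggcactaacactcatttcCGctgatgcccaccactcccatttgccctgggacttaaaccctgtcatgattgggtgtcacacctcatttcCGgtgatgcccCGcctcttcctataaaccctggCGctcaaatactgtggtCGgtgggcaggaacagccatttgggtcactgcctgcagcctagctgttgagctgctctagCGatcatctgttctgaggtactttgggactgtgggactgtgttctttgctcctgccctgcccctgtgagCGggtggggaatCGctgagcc
Fthl17e: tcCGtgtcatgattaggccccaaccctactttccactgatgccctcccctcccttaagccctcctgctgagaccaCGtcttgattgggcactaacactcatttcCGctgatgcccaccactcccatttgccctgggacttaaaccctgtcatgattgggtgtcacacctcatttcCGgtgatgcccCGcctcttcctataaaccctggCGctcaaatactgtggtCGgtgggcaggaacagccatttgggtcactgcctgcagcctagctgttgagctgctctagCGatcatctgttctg
Fthl17a: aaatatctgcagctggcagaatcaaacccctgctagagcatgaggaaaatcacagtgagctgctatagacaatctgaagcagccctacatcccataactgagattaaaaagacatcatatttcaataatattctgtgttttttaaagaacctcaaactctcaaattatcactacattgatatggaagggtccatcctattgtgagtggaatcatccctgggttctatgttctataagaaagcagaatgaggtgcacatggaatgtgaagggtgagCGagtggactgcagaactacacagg
The windows held 9, 8 and 1 CpG. The median over 10621 promoters of listed genes was 19 CpG, and 3.5% of those promoters had no more than Fthl17a.

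Fthl17d stood at 0 FPKM in all WT libraries and at 3.81, 10.2 and 17.0 FPKM in replicates 1 to 3 titled Carm1-/-. All 3 were above WT, which the filter required of a gene at 0 in every WT library. The log2 difference was 3.31 (SE 0.50, adjusted p = 0.26, limma) and 3.83 without replicate 1 (adjusted p = 0.00965). Fthl17e was at 0, 0 and 1.18 FPKM in the WT libraries and at 0.77, 22.3 and 23.7 FPKM, so replicate 1 lay within WT (adjusted p = 0.0143 without it, limma). Fthl17b, Fthl17c, Fthl17f and the pseudogene Fthl17-ps1 also rose without replicate 1, with adjusted p values from 0.0186 to 0.0421 (limma). These were looked at after Fthl17d and Fthl17e were seen. In all but Fthl17f replicate 1 was above WT too. The filter required this, as Fthl17b, Fthl17c and Fthl17-ps1 were under 1 FPKM in all WT libraries. The distant member Fthl17a did not, at 11.5, 14.6 and 16.6 FPKM in WT and 15.7, 2.69 and 14.7 FPKM in the libraries titled Carm1-/-. In the libraries titled H3R17H, Fthl17d stood at 0, 15 and 15.1 FPKM and Fthl17e at 0, 13.8 and 17.8 FPKM.

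**Figure D4:**
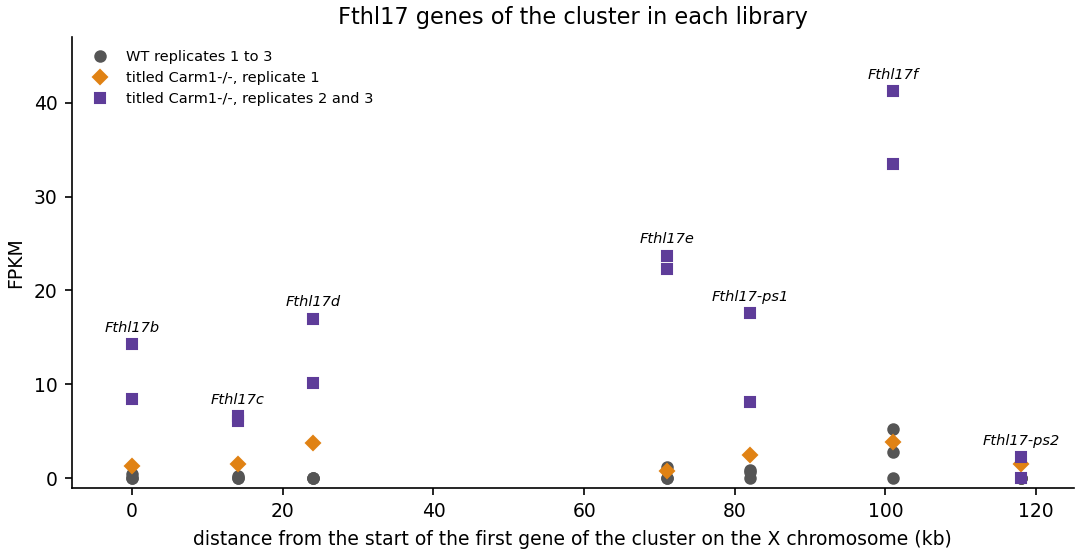
FPKM of the Fthl17 genes in each of the 6 libraries against distance along the X chromosome (kb from the start of Fthl17b). Replicates 2 and 3 titled Carm1-/- (squares) lie above the WT libraries (circles) at every gene to 101 kb, and replicate 1 (diamonds) lies between 0.77 and 3.83 FPKM there.

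Most of the listed genes that p53 activates, which halt the cell cycle or repair damage, had higher values. Of 21 tested, 17 had higher and 4 lower values, with a median log2 difference of 0.72, against -0.06 over all tested genes, and 9 lay above WT in all 3 libraries, where 6.9% of all tested genes did. The list medians were 0.42, 1.06 and 0.38 in replicates 1 to 3 and -0.22 to 0.18 in WT. Each WT library was measured from a mean that includes it, which draws its median toward 0. The WT range is thus not a like scale for the libraries titled Carm1-/-, and the medians were not tested. None passed over all 3 libraries, and without replicate 1 Cdkn1a and Trp53inp1 rose, 2 of 21 (9.52%, against 1.78% of all tested genes). Cdkn1a, the p21 inhibitor of cyclin-dependent kinases, was at 128, 127 and 113 FPKM in the WT libraries and at 193, 499 and 287 FPKM in the libraries titled Carm1-/-, with all 3 above WT (log2 difference 1.30, SE 0.33, adjusted p = 0.278, limma, and 1.62, adjusted p = 0.0292, without replicate 1). Btg2, an antiproliferative factor, was at 25.0, 38.1 and 22.9 FPKM in the WT libraries and at 89.6, 189 and 69.4 FPKM, and did not pass (adjusted p = 0.271, or 0.0544 without replicate 1). Sesn2, a stress sensor that restrains mTORC1, was at 10.2, 14.0 and 7.24 FPKM in the WT libraries and at 22.6, 27.5 and 20.3 FPKM. Mdm2, the ubiquitin ligase of p53 itself, was at 10.5, 11.9 and 8.92 FPKM in the WT libraries and at 13.8, 30.9 and 13.5 FPKM. Ddb2 went the other way and was the 1 member below WT in all 3 libraries, where 9.94% of all tested genes lay. It was at 7.05, 5.83 and 3.48 FPKM against 9.73 to 14.5 (log2 difference -1.02, SE 0.34, adjusted p = 0.387, limma). Among 15 apoptosis regulators, 1 passed without replicate 1, Birc3, which fell from 2.71 to 4.14 FPKM in WT to 0 and 0.20 FPKM.

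Stress genes had higher values in replicates 2 and 3 and, as a list, not in replicate 1. Of 17 tested genes of the integrated and endoplasmic reticulum stress response, 13 had higher values, with medians of -0.11, 0.81 and 0.95 in replicates 1 to 3. Without replicate 1, Ddit3, Ddit4, Dnajb9 and Psat1 rose, 4 of 17 (23.5%, against 1.78% of all tested genes), and 0 fell. Ddit3 (Chop), a transcription factor of this response, was at 7.75, 5.63 and 8.51 FPKM in the WT libraries and at 11.2, 20.9 and 36.4 FPKM, all above WT (adjusted p = 0.0397 without replicate 1, limma). Dnajb9, a chaperone of the endoplasmic reticulum, was at 10.1, 10.1 and 7.63 FPKM in WT, 5.41 FPKM in replicate 1 and 45.6 and 44.9 FPKM in replicates 2 and 3. Psat1, an enzyme of serine synthesis, had the same order, at 82.0 to 129 FPKM in WT, 48.8 FPKM in replicate 1 and 225 and 352 FPKM in replicates 2 and 3. Of 11 immediate early genes 8 had higher values and none rose at the threshold. Klf6 fell without replicate 1 (9.09%, against 1.76% of all tested genes). Jun was at 2.91, 4.50 and 3.46 FPKM in the WT libraries and at 8.77, 9.96 and 10.2 FPKM, above WT in all 3 libraries (adjusted p = 0.273, limma). It was 1 of 4 members above WT in all 3 libraries, where 6.9% of all tested genes lay. Myc was the 1 member below WT in all 3, where 9.94% of all tested genes lay. It was at 5.62, 0 and 2.85 FPKM against 5.91 to 12.9 (log2 difference -1.68, SE 0.68, adjusted p = 0.445, limma).

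**Figure D5:**
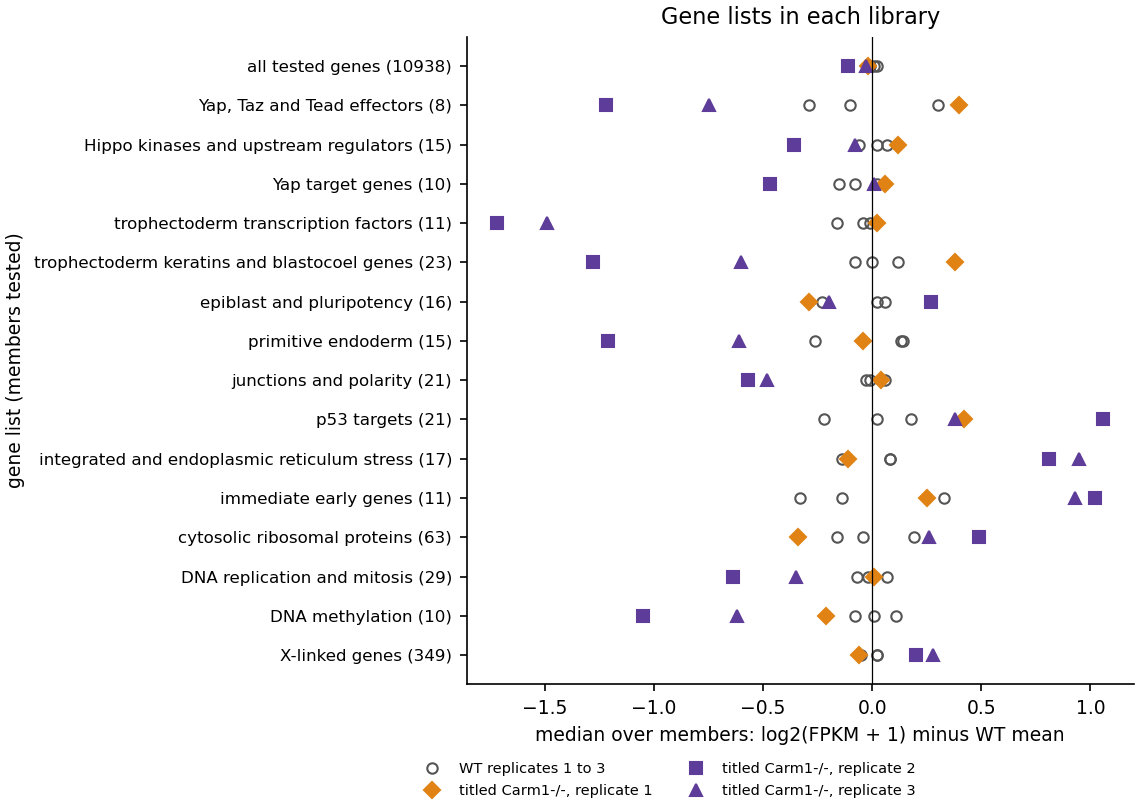
Median over the tested members of each gene list of log2(FPKM + 1) minus the WT mean, for each WT library (open circles) and each library titled Carm1-/-. The WT mean includes each WT library, which draws the open circles toward 0. Replicates 2 and 3 (square and triangle) lie apart from WT for trophectoderm regulators at -1.72 and -1.49, where replicate 1 (diamond) lies at 0.02; for p53 targets all 3 lie above WT, at 0.42, 1.06 and 0.38.

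Arginine methyltransferases and histone H3 genes, the enzymes and substrate of the mark, did not pass. Of 9 tested methyltransferase genes (with the Prmt5 partner Wdr77) 5 had higher and 4 lower values. Prmt1, the main asymmetric methyltransferase, was at 244, 91.9 and 145 FPKM in the WT libraries and at 110, 379 and 194 FPKM, and the WT spread covered replicates 1 and 3. Of 11 histone H3 genes 8 had lower values, with a median of -0.27, and the library protocol is not stated to capture RNA without a poly(A) tail, which most of these genes make. H3f3b, which makes the polyadenylated variant H3.3, was at 346, 667 and 827 FPKM in the WT libraries and at 350, 1073 and 410 FPKM. Among 19 CARM1 partners and paraspeckle genes 0 passed with or without replicate 1, and their medians were -0.05, -0.16 and -0.05. Arid1a, a subunit of the BAF remodelling complex, in which CARM1 is known to methylate BAF155, lay below WT in all 3, at 21.2, 15.8 and 12.3 FPKM against 24.2 to 27.1 (adjusted p = 0.481, limma). Among 20 Polycomb and H3K9 modifiers 0 passed.

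Some DNA methylation genes were lower in replicates 2 and 3. Of 10 tested 9 had lower values, with a median of -0.53 over all 3 libraries and -0.21, -1.05 and -0.62 in replicates 1 to 3. Without replicate 1, Dnmt3b, Uhrf1 and Tet2 fell, 3 of 10 (30%, against 1.76% of all tested genes), and 0 rose. The summed level of the list did not fall with them, at 5813 to 8609 FPKM in WT and 4929, 10107 and 6959 FPKM in replicates 1 to 3. Most of that sum was Dppa3, a maternal factor that protects methylation in the zygote, at 5528 to 8341 FPKM in WT and 4693, 9906 and 6783 FPKM in replicates 1 to 3. Dnmt3b, a de novo methyltransferase, was at 27.9, 34.8 and 32.0 FPKM in WT, 29.6 FPKM in replicate 1 and 8.86 and 9.43 FPKM in replicates 2 and 3 (adjusted p = 0.0245 without replicate 1, limma). Uhrf1, which brings the maintenance enzyme to replicated DNA, was at 18.4 to 39.3 FPKM in WT, 32.9 FPKM in replicate 1 and 6.56 and 6.62 FPKM in replicates 2 and 3. Tet2, which oxidises methylcytosine, was at 21.5 to 29.4 FPKM in WT, 20.3 FPKM in replicate 1 and 6.57 and 1.12 FPKM in replicates 2 and 3. The maintenance enzyme Dnmt1 itself overlapped with WT, at 8.15, 5.06 and 10.1 FPKM against 9.77 to 11.7. These are RNA levels, and DNA methylation was not measured here.

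The growth and metabolism lists held few genes that passed. Of 29 replication and mitosis genes 24 had lower values, with a median of -0.32, and Cdk2 alone fell without replicate 1, from 82.1 to 89.4 FPKM in WT to 41.2 and 29.4 FPKM. Of 63 cytosolic ribosomal protein genes 48 had higher values, but their median was below WT in replicate 1, at -0.34, and above it in replicates 2 and 3, at 0.49 and 0.26. Without replicate 1, Rpl38, Rplp2, Rps27 and the X-linked Rps4x rose, 4 of 63 (6.35%, against 1.78% of all tested genes). Rpl38 was at 176, 268 and 250 FPKM in WT, 160 FPKM in replicate 1 and 778 and 672 FPKM in replicates 2 and 3. Of 16 glycolysis genes Hk2, which commits glucose to the pathway, and Tpi1 fell without replicate 1 (12.5%, against 1.76% of all tested genes). Ldhb rose (6.25%, against 1.78%). Hk2 was at 45.5 to 105 FPKM in WT, 38.6 FPKM in replicate 1 and 8.25 and 15.4 FPKM in replicates 2 and 3. Of 23 sterol genes, 39 nuclear and 13 mitochondrial respiratory chain genes, 0 passed with or without replicate 1.

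In the glutathione and redox list, Gpx2 was the member that rose without replicate 1 (5%, against 1.78% of all tested genes). Of 20 tested, 11 had higher and 9 lower values with a median of 0.07, and the abundant peroxidase Gpx1 overlapped with WT, at 422, 301 and 384 FPKM against 419 to 431. Nqo1, a quinone reductase and classic Nrf2 target, lay above WT in all 3 libraries, at 6.24, 6.07 and 5.37 FPKM against 2.24, 1.92 and 1.17 (log2 difference 1.33, SE 0.33, adjusted p = 0.273, limma). Gsta4, a glutathione transferase, was the member that fell without replicate 1 (5%, against 1.76% of all tested genes). It was at 176 to 230 FPKM in WT, 270 FPKM in replicate 1 and 34.9 and 74.6 FPKM in replicates 2 and 3. Among 13 imprinted genes Phlda2 alone passed without replicate 1, where it rose (7.69%, against 1.78% of all tested genes). Peg10, which the placenta needs, lay below WT in all 3 libraries, at 0.09, 0.67 and 0.09 FPKM against 1.56, 2.13 and 1.84, and did not pass (adjusted p = 0.325, limma). Sfmbt2, a Polycomb gene that is imprinted in extraembryonic tissue, also lay below, at 1.89, 1.28 and 1.71 FPKM against 3.31 to 4.14 (adjusted p = 0.417).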

How the data were processed

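The authors deposited 1 table of FPKM, in which each of 9 libraries is a column. Bowtie 0.12.2 and the genome builds GRCm38 and mm10 appear in the submitters' processing notes, without their use. The quantifier and the annotation were not given in the sources used here. Groups follow the sample titles. FPKM is relative to the library total, so abundant genes can move the rest, and reads of near-identical copies may be split. Low values showed no steps of whole reads, so depth is unknown and no counting interval is given. All columns were matched to samples (0 left unmatched).

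Values of the 6 libraries were taken as log2(FPKM + 1), so fold changes of low genes are understated. Genes that reached 1 FPKM in 3 or more libraries entered a two-sided limma fit with an intensity trend and Benjamini-Hochberg adjustment over 10938 genes at 0.05. The smallest exact permutation p that 3 against 3 libraries allow is 0.1. The fit was tested on simulated data with independent noise and a shift shared by all 3 libraries of a group. That test does not cover a group in which 1 library differs from the others, as here. R 4.3.3, limma 3.58.1, Python 3.11.15, pandas 2.3.3, numpy 2.4.6 and matplotlib 3.10.9 were used.

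The libraries and the 32 gene lists were chosen with earlier results of these data known. The lists are described by counts and medians, with no test of a list. Named genes were Carm1, a fixed set of genes, and in each direction the 5 with the smallest p among those with non-overlapping groups and a mean of at least 5 FPKM. To these were added up to 10 in each direction that passed without Carm1-/- replicate 1, and up to 4 members of each list, without predicted gene models. Not all are reported. Other list members, the Fthl17 and Rhox genes were named after their values were seen. Positions are 1-based, from GENCODE M21 on GRCm38, matched by symbol and chromosome for 88.7% of rows, and 66.1% of rows matched a RefSeq promoter.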

Additional observations from a re-analysis of the deposited data

How the results depend on the processing

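With quantile normalization, median-of-ratios scaling, pseudocounts of 0.1 and 5, no trend, no filter, a filter on a mean of 5 FPKM, or all 9 libraries in the fit, limma called 0 genes in each direction, and the named genes with a value there kept their direction (98, or 80 under the mean filter), except Dppa3 at -0.14 and Dppa5a at -0.28 on the log2 scale with quantile normalization. Array quality weights gave 3 higher genes (Fthl17d, Rhbg and Rhox5) and 0 lower. Each of these 3 was under 1 FPKM in every WT library. The filter kept them only because all 3 libraries titled Carm1-/- reached 1 FPKM. Leaving out each library in turn gave 0 to 195 higher and 0 to 192 lower genes. Same-numbered libraries had correlations of their deviations of -0.02, -0.04 and 0.04, so the numbers do not pair the samples, and the replicate block called 0 genes higher and 0 lower. With a sex term, where the contrast is that of replicate 1 with WT, 0 genes were higher and 1, Slc39a1, was lower. With it 27 of the 98 turned direction: Bex1 -0.60, Carm1 -0.19, Cdx2 0.75, Dnajb9 -0.67, Dppa1 0.64, Dppa3 -0.48, Dppa5a -0.15, Ezr 0.02, Fthl17a 0.15, Gata6 -0.32, Gsta4 0.43, Krt18 0.38, Krt8 0.69, Ldhb -1.24, Msn 0.39, Ooep 0.43, Prmt1 -0.43, Psat1 -1.10, Rpl38 -0.51, Rplp2 -0.10, Rps27 -0.28, Rps4x -0.44, Slc9a3r1 0.08, Spry1 0.31, Tead4 0.26, Tpi1 0.07 and Uhrf1 0.17 on the log2 scale. Over the libraries left out in turn, the differences that changed sign ranged from -0.02 to 0.87 for Prmt1, -0.99 to 0.10 for Fthl17a, -0.01 to 1.40 for Psat1, -0.72 to 0.39 for Tead4, -0.21 to 0.33 for Dppa3, -0.12 to 0.16 for Dppa5a and -0.60 to 0.20 for H3f3b. The depth of the libraries is unknown, so what it limits cannot be given.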

Other observations

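Among rows outside the lists, the 21 tested tRNA genes of the mitochondrial genome were looked at after their values were seen. Of these, 18 had higher values in the libraries titled Carm1-/-, with a median log2 difference of 0.95. Without replicate 1, 7 of the 21 rose (limma), against 1.78% of all tested genes. Their medians were 0.12, 2.01 and 1.04 in replicates 1 to 3. The 13 mitochondrial mRNA genes did not share this, with medians of 0.06, 0.45 and -0.31 and 0 that passed. The polycistronic mitochondrial RNA is cut at its tRNAs, and short transcripts are measured poorly in FPKM. The part of RNA handling in this difference was not tested.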
